A study of Homo sapiens with 6 samples.

Results

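Of the genes that write and remove methylation of histone lysines, 52 were listed by name for this function. The 34 writers are lysine methyltransferases, core subunits of their complexes and related SET domain proteins. The 18 erasers are lysine demethylases. The list need not hold every such gene, and counts of writers and erasers below refer to listed genes only. All 52 were found by symbol among 62438 gene identifiers, and all 52 passed the expression filter that left 17320 genes for testing. Their expression was compared between an N6AMT1 siRNA (si-N6AMT1, n = 3) and a scrambled control siRNA (si-CN, n = 3), each given at 10 nM for 48 h to human breast cancer cells that the labels name MDA-MB-453. The question was whether transcripts of these enzymes differ when N6AMT1 is depleted, since N6AMT1 has itself been described as a histone lysine methyltransferase (KMT9) besides its reported role in N6-methyladenine of DNA. All 6 libraries came from transfected, otherwise unmodified cells in the same growth medium, and the sequence of the N6AMT1 siRNA is not given in the sources used here. The labels speak of triplicate cells without naming separate cultures, so p-values measure only the spread between these libraries.

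Histone methyltransferases transfer a methyl group from S-adenosylmethionine to a lysine of the histone tail, mostly through a SET domain, and each family prefers certain lysines. Methylated H3K4, H3K36 and H3K79 mark promoters, enhancers and bodies of active genes, whereas methylated H3K9, H3K27 and H4K20 mark silent or compact chromatin. Demethylases remove the group again, either by a flavin-dependent amine oxidase or, in most families, by an iron-dependent JmjC domain. Many of these genes are mutated or altered in dosage in cancers, the breast included.

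Library totals were 19739247 to 21289740 estimated counts, and the 52 genes together took 0.426 to 0.452% of them. The chi-square of a library pair, divided by its degrees of freedom, was 1.37 to 1.77 inside a group, above sampling noise, and 6.89 to 7.80 across groups. Each library was counted as 1 replicate, though these values cannot tell separate cultures from repeated preparations of 1 culture. The label was checked against marker genes. Of the luminal markers of that line, SPDEF had 1 to 6 counts per library, and GATA3 and FOXA1 stood at 2.4 to 3.66 and 7.69 to 8.94 CPM (counts scaled to library size). The basal keratin genes KRT5 and KRT14, expected to be low in that line, stood at 755 to 838 and 105 to 128 CPM, and VIM at 616 to 638 CPM, while KRT8, KRT18, XBP1 and ERBB2 were present. Expression therefore went against the label in all 6 libraries, and the cells are called by their label only. KRT5, KRT14, KRT8 and KRT18 were also called higher in si-N6AMT1, and their part in the results for the 52 genes was not tested. Because these are bulk libraries, fewer cells of a type and less RNA per cell cannot be told apart.

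N6AMT1 (ENSG00000156239, chr21:30244513-30257693, minus strand, GRCh37), the targeted gene, stood at 3.08, 3.53 and 2.93 CPM in the si-N6AMT1 libraries and at 6.93, 6.86 and 6.65 CPM in the si-CN libraries. All 3 si-N6AMT1 libraries were below all 3 si-CN libraries. The log2 fold change of si-N6AMT1 against si-CN was -1.10 (SE 0.119, FDR = 3.65e-07). FDR here and below is the Benjamini-Hochberg adjusted p of edgeR's quasi-likelihood test over all genes tested, and a gene with FDR under 0.05 is called lower or higher.

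Of the 52 genes, 12 were decreased (23.1%) and 4 increased (7.69%) in si-N6AMT1, and 36 were not called. Over all genes tested, 11.5% were called lower and 9.78% higher, and over tested protein-coding genes 14.4% and 11.5%. The decreased genes were the writers SETD5, SETD7, PRDM2, KMT2C, NSD2, NSD1 and SETD3 and the erasers KDM5C, KDM3B, KDM6B, KDM7A and JMJD1C. The increased genes were the writers SMYD5, KMT2B, EZH1 and SETDB1. Every difference was small beside that of N6AMT1, as log2 fold changes of the 52 genes ran from -0.26 to 0.29 with a median of -0.03, against 0.00 over all genes tested. The smallest called difference was 0.10 on the log2 scale. The median standard error of the 52 genes was 0.0371, against 0.0676 over all genes tested and 0.0506 over tested protein-coding genes. All 3 si-N6AMT1 libraries were below all 3 si-CN libraries in 18 of the 52 genes (34.6%, against 18.0% of all genes tested) and above them in 8 (15.4%, against 16.8%). Over tested protein-coding genes these shares were 21.3% below and 18.9% above. The part of the smaller standard errors in these shares was not tested.

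Of the 34 writers, 7 were decreased, 4 increased and 23 not called, with a median log2 fold change of -0.01. Of the 18 erasers, 5 were decreased and 0 increased, with a median of -0.06. Log2 fold changes were negative in 16 of the 18 erasers (88.9%) and in 18 of the 34 writers (52.9%), against 49.1% of all genes tested. At an unadjusted p under 0.05 in edgeR, 10 erasers were lower and 0 higher, against 16.4% lower and 15.4% higher of all genes tested at that threshold. DESeq2 called 2 erasers lower and 0 higher, against 10.1% and 7.06% of all genes with an adjusted p in that tool. Whether writers and erasers differ was not tested. DESeq2 called fewer of the 52 genes, 7 lower and 2 higher, against 10.1% lower and 7.06% higher of all genes with an adjusted p in that tool. The 9 genes called by both tools were SETD5, KDM5C, SETD7, KDM3B, KMT2C, NSD2, SETD3, KMT2B and SMYD5, and these 9 also kept their call in each of the other alternatives run. Leaving out 1 library changed some counts. Without si-N6AMT1 replicate 1 the number of increased genes was 2, and the number of decreased erasers was 3 without si-N6AMT1 replicate 3 and 2 without si-CN replicate 3.

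**Figure D1:**
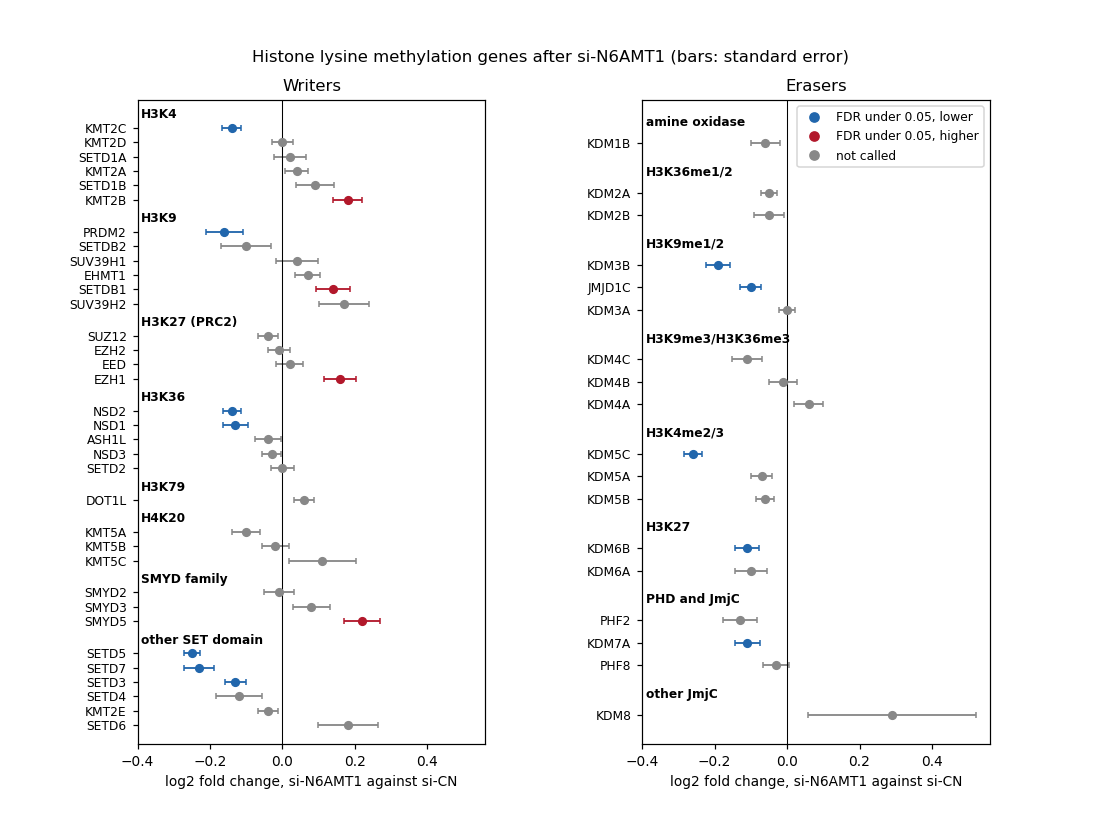
The log2 fold change of si-N6AMT1 against si-CN (x axis) is plotted for each of the 52 genes, with bars of 1 standard error. Writers are on the left and erasers on the right, grouped by the lysine they act on or by protein family. Called genes (blue lower, red higher) lie on both sides of zero among the writers, and the 5 called erasers all lie below zero.

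Short sequences in the 3′ UTR were examined because an earlier look at these same fold changes, over all genes, had picked 2 sequences of 7 bases, TTCACAT and TCACATA, as those whose carriers were lower. They are a description here and not independent evidence. Both overlap in the 8-base sequence TTCACATA, and each was searched on the transcribed strand of the annotated 3′ UTR of 1 reference transcript per gene. Of the 52 genes, 14 (26.9%) held at least 1 such site, against 22.2% of 13301 tested protein-coding genes with a 3′ UTR. The median UTR length was 1744 bases in the 52 genes and 1322 bases in all, with 0.156 and 0.155 sites per 1000 bases. The sites of the 6 decreased genes that hold one are shown with the site in capitals, and that of KDM2A is added as the other of the 2 genes with the 8-base form (GRCh37, 5′ to 3′ on the strand of the gene).
KDM5C, 8 bases, chrX:53221639-53221668, minus strand: gaggaggaaacTTCACATAgccgtgctcac
KDM2A, 8 bases, chr11:67023138-67023167, plus strand: actcgtgcttgTTCACATAattaggtttcc
SETD3, 7 bases, chr14:99864943-99864971, minus strand: cggacagtccgTTCACATcgctgtgtttc
SETD7, 7 bases, chr4:140427655-140427683, minus strand: atacctgcttaTCACATAggaaaattatg
KDM3B, 7 bases, chr5:137771760-137771788, plus strand: gataggggaaaTCACATAactggtacaag
KDM6B, 7 bases, chr17:7757143-7757171, plus strand: ggcggcgggggTCACATAcgggttccctc
KDM7A, 7 bases, chr7:139785235-139785263, minus strand: taatatgaactTTCACATttactgtgaaa
KDM7A, 7 bases, chr7:139788081-139788109, minus strand: aatttacaatgTCACATAatattatgctt

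A site was present in 6 of the 12 decreased genes, in 0 of the 4 increased genes and in 8 of the 36 genes not called. For the 14 genes with a site, log2 fold changes had a median of -0.10 (range -0.26 to 0.18), and 6 of them were decreased and 0 increased. The 38 genes without a site had a median of -0.01 (range -0.25 to 0.29), and 6 of them were decreased and 4 increased. Among all tested protein-coding genes the median was -0.10 with an 8-base site, -0.05 with a 7-base site and 0.02 with none, and 41.1%, 25% and 10.3% of them were called lower. Called higher in these classes were 25 of 618, 153 of 2340 and 1347 of 10343 genes, so calls higher were few among site carriers in general. In the same order, the median UTR length of these classes was 3625, 3080 and 969 bases and the median GC content of the transcript 41.4, 43.1 and 51.2%. Among the 52 genes the median UTR length was 2226 bases with a site and 1551 bases without, and the median GC content 44.1 and 49.5%. The part of UTR length and GC content in the difference between the classes was not tested. SETD5, NSD2, KMT2C, NSD1, PRDM2 and JMJD1C were decreased and held no site in the transcript searched. The 8-base form was in KDM5C, which was decreased, and in KDM2A, a demethylase of H3K36, which was not called (log2 fold change -0.05, SE 0.0223, FDR = 0.164). In both KDM5C and KDM2A, every si-N6AMT1 library was below every si-CN library. The difference between the fold changes of these 2 genes was not tested.

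**Figure D2:**
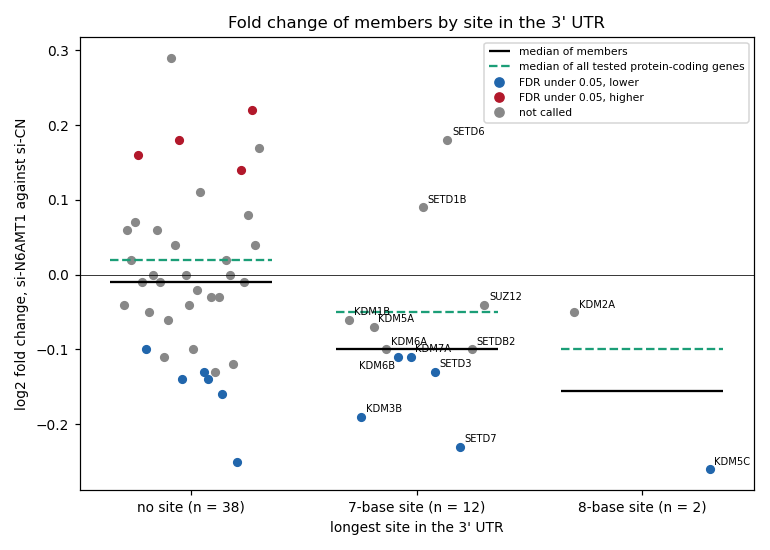
The log2 fold change of each of the 52 genes (y axis) is plotted by the longest TTCACATA-type site in its 3′ UTR (38 genes with none, 12 with 7 bases, 2 with 8 bases), with the median of these genes (black line) and of all tested protein-coding genes (dashed green line). All 4 increased genes lie in the column without a site, and decreased genes lie in each column. Of the tested protein-coding genes with a 3′ UTR, 1347 of the 1525 called higher held no site either.

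Among the H3K4 writers, which form COMPASS-type complexes, 1 of 6 was decreased, 1 was increased and 4 were not called. KMT2C (ENSG00000055609, chr7:151832007-152133729, minus strand), which with KMT2D monomethylates H3K4 at enhancers, stood at 134, 135 and 131 CPM in si-N6AMT1 and at 145, 147 and 150 CPM in si-CN. The groups did not overlap, and KMT2C fell by 9.4% (log2 fold change -0.14, SE 0.0258, FDR = 0.000279). Its relative KMT2D had a log2 fold change of 0.00 (SE 0.0296, FDR = 0.958). The share of KMT2C in the summed TPM (length-scaled transcript abundance) of both was 60% ± 0.756 (SD, n = 3) in si-N6AMT1 and 62.4% ± 0.337 (SD, n = 3) in si-CN. KMT2C has near-identical partial copies elsewhere in the genome, between which estimated counts can be split. KMT2B (ENSG00000272333, chr19:36208875-36229781, plus strand), a writer of H3K4 trimethylation at promoters, moved the other way. Its level was 56.1, 54.3 and 51.9 CPM in si-N6AMT1 and 48, 49.3 and 46.4 CPM in si-CN. The lowest si-N6AMT1 library was above the highest si-CN library, and KMT2B rose by 13.1% (log2 fold change 0.18, SE 0.04, FDR = 0.00235). KMT2A, the H3K4 writer with the highest level per length among those not called, had 0.04 (SE 0.0317, FDR = 0.378) on the log2 scale. Of its exon bases, 18.3% are shared with another annotated gene on the same strand. That gene had a mean of 41.3 counts per library, against 3125 to 3488 counts for KMT2A.

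Of the 6 writers of H3K9, 1 was decreased and 1 increased, and both calls were lost under other settings. PRDM2 (ENSG00000116731, chr1:14026683-14151574, plus strand), a PR domain methyltransferase of H3K9, stood at 27.9, 30.5 and 28.3 CPM in si-N6AMT1 and at 30.9, 34.2 and 31.5 CPM in si-CN. The highest si-N6AMT1 library was just below the lowest si-CN library (log2 fold change -0.16, SE 0.0519, FDR = 0.0343). Its adjusted p was 0.126 without si-N6AMT1 replicate 1, 0.117 without si-N6AMT1 replicate 3, 0.194 without si-CN replicate 2, 0.0571 without si-CN replicate 3 and 0.188 in DESeq2. SETDB1, which trimethylates H3K9 in the silencing of retroelements, ranged from 47.3 to 53.1 CPM in si-N6AMT1 and from 43.8 to 48.7 CPM in si-CN (log2 fold change 0.14, SE 0.0468, FDR = 0.0425). It was the only one of the 16 called genes whose libraries overlapped between groups. Its adjusted p was 0.209 and 0.0865 without si-N6AMT1 replicates 1 and 2, 0.128 and 0.192 without si-CN replicates 1 and 3, 0.0507 in limma-voom and 0.187 in DESeq2. In addition, 12.9% of the exon bases of SETDB1 overlap exons of CERS2 on the opposite strand, which had a mean of 3851.5 counts per library, and the strand option of the counting is not given in the sources used here. EHMT1, which mono- and dimethylates H3K9, was not called (log2 fold change 0.07, SE 0.0348, FDR = 0.151).

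Polycomb repressive complex 2 methylates H3K27 through either of the catalytic subunits EZH1 and EZH2, held together by EED and SUZ12, and 1 of these 4 genes was called. EZH1 (ENSG00000108799, chr17:40852293-40897067, minus strand) stood at 37.7, 36.3 and 35.5 CPM in si-N6AMT1 and at 32.9, 32.1 and 33 CPM in si-CN. The groups did not overlap, and EZH1 rose by 11.6% (log2 fold change 0.16, SE 0.0441, FDR = 0.0118). The call was lost without si-N6AMT1 replicate 1 (adjusted p = 0.0561) and in DESeq2 (adjusted p = 0.136). EZH2, the subunit of dividing cells, had a log2 fold change of -0.01 (SE 0.0298, FDR = 0.859), and EED and SUZ12 were not called either, with 0.02 and -0.04. The share of EZH1 in the summed TPM of EZH1 and EZH2 was 18.5% ± 0.214 (SD, n = 3) in si-N6AMT1 and 16.8% ± 0.137 (SD, n = 3) in si-CN.

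The H3K36 writers had 2 of 5 genes decreased and 0 increased in edgeR, and all 5 log2 fold changes were zero or negative. At an unadjusted p under 0.05 in edgeR 2 were lower and 0 higher, and DESeq2 called NSD2 lower and 0 higher. NSD2 (ENSG00000109685, chr4:1873120-1983934, plus strand), which dimethylates H3K36 and is overexpressed after a translocation in myeloma, stood at 164, 165 and 162 CPM in si-N6AMT1 and at 178, 186 and 179 CPM in si-CN. All si-N6AMT1 libraries were lower, and NSD2 fell by 9.42% (log2 fold change -0.14, SE 0.0253, FDR = 0.000215). NSD1 (ENSG00000165671, chr5:176558831-176727214, plus strand), its relative altered in Sotos syndrome, stood at 74, 73.4 and 68.9 CPM in si-N6AMT1 and at 77.9, 78.8 and 79.9 CPM in si-CN. The groups did not overlap (log2 fold change -0.13, SE 0.0338, FDR = 0.00712), but the adjusted p was 0.0669 without si-N6AMT1 replicate 3 and 0.0662 in DESeq2. NSD3, the third gene of the family, had -0.03 (SE 0.0254, FDR = 0.5). SETD2, the writer of H3K36 trimethylation, and ASH1L had -0.00 and -0.04 and were not called.

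Of the writers of H3K79 and H4K20, 0 were called by edgeR or by DESeq2, and at an unadjusted p under 0.05 in edgeR 1 was higher (DOT1L) and 1 lower (KMT5A). DOT1L, the H3K79 methyltransferase that lacks a SET domain, had a log2 fold change of 0.06 (SE 0.0281, FDR = 0.13), with its 3 si-N6AMT1 libraries above the 3 si-CN libraries. KMT5A, which monomethylates H4K20 in the cell cycle, had -0.10 (SE 0.038, FDR = 0.06), with all si-N6AMT1 libraries lower. The other H4K20 writers KMT5B and KMT5C had -0.02 and 0.11.

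Of the SMYD family, whose SET domain is split by a MYND zinc finger, 1 of 3 was increased. SMYD5 (ENSG00000135632, chr2:73441350-73454349, plus strand) stood at 32.7, 29.9 and 32.2 CPM in si-N6AMT1 and at 26.5, 27.8 and 27.1 CPM in si-CN. The groups did not overlap, and SMYD5 rose by 16.5% (log2 fold change 0.22, SE 0.0502, FDR = 0.00247). Among the called genes of the set this was the rise with the highest fold change. SMYD2, which methylates histones and other proteins, had -0.01 (SE 0.0409, FDR = 0.885).

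The remaining SET domain proteins had 3 of 6 genes decreased and 0 increased. At an unadjusted p under 0.05 in edgeR 1 was higher, SETD6, named after its value was seen, and DESeq2 called 0 higher. SETD5 (ENSG00000168137, chr3:9439299-9520924, plus strand), a SET domain protein of debated catalytic activity whose loss causes intellectual disability, stood at 289, 283 and 279 CPM in si-N6AMT1 and at 335, 340 and 341 CPM in si-CN. Every si-N6AMT1 library was far below every si-CN library, and SETD5 fell by 16.1% (log2 fold change -0.25, SE 0.0224, FDR = 1.68e-08). SETD7 (ENSG00000145391, chr4:140417095-140527853, minus strand), a monomethyltransferase of H3K4 and of many other proteins, stood at 45.7, 45.8 and 41.8 CPM against 51, 53.2 and 51.6 CPM in si-CN. It fell by 14.5% with no overlap (log2 fold change -0.23, SE 0.0417, FDR = 0.000345). SETD3 (ENSG00000183576, chr14:99864085-99947226, minus strand) is listed by its SET domain, but its known substrate is a histidine of actin. It stood at 94.5, 89.6 and 91 CPM against 102, 99.5 and 100 CPM in si-CN, again with no overlap (log2 fold change -0.13, SE 0.0298, FDR = 0.00236). KMT2E, which reads methylated H3K4 and has no shown methyltransferase activity, was not called (log2 fold change -0.04, SE 0.0277, FDR = 0.423). SETD6, a methyltransferase of RELA, had 0.18 (SE 0.0827, FDR = 0.146), and 17.5% of its exon bases overlap CNOT1 on the opposite strand, which had a mean of 5981.5 counts per library.

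**Figure D3:**
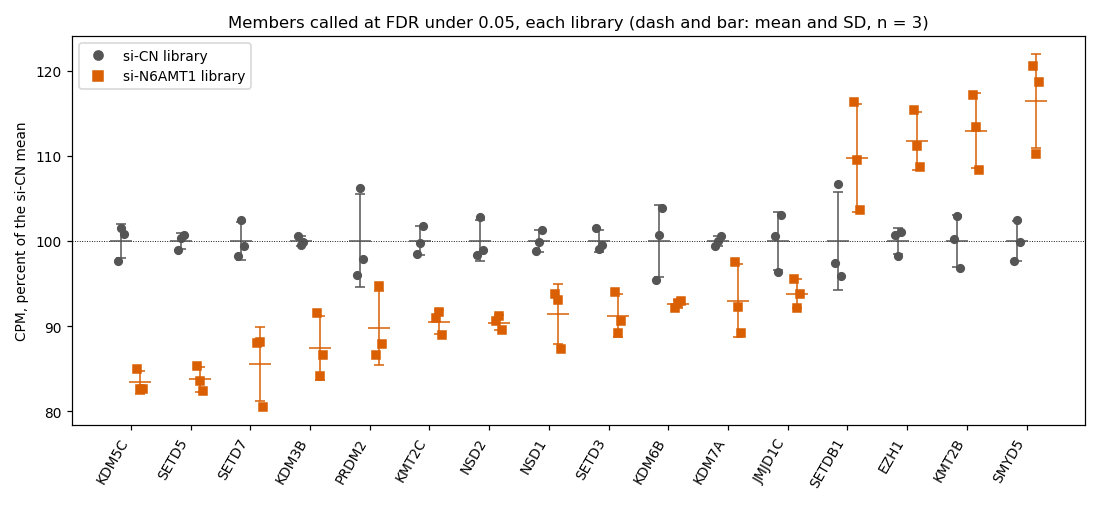
Each library's CPM, as a percent of the si-CN mean (y axis), is plotted for the 16 called genes, with the mean and SD of each group (n = 3). The si-N6AMT1 libraries (orange squares) lie below all si-CN libraries (grey circles) in 12 genes and above them in 3, and SETDB1 is the gene whose groups overlap.

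Among the erasers, KDM5C of the H3K4me2/3 family showed the fall with the lowest FDR. KDM5C (ENSG00000126012, chrX:53205465-53254604, minus strand), an X-linked JmjC demethylase that removes di- and trimethylation of H3K4, stood at 220, 214 and 214 CPM in si-N6AMT1 and at 253, 263 and 261 CPM in si-CN. All 3 si-N6AMT1 libraries were well below the si-CN libraries, and KDM5C fell by 16.6% (log2 fold change -0.26, SE 0.0241, FDR = 3.27e-08). Its relatives KDM5B and KDM5A were not called, with -0.06 (SE 0.0243, FDR = 0.0795) and -0.07 (SE 0.0293, FDR = 0.121), and KDM5A reached an adjusted p of 0.0474 without si-CN replicate 1. Of the summed TPM of the 3 genes, KDM5C took 55.4% ± 0.293 (SD, n = 3) in si-N6AMT1 and 58.8% ± 0.18 (SD, n = 3) in si-CN. KDM5C thus decreased as an eraser of H3K4 methylation while, among the H3K4 writers, KMT2C decreased and KMT2B increased.

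Of the 3 erasers of H3K9me1/2, 2 were decreased. KDM3B (ENSG00000120733, chr5:137688374-137772717, plus strand) stood at 83.5, 76.8 and 79 CPM in si-N6AMT1 and at 91.8, 90.8 and 91.1 CPM in si-CN. The si-CN libraries were close to each other and all above the si-N6AMT1 libraries, and KDM3B fell by 12.6% (log2 fold change -0.19, SE 0.0327, FDR = 0.000125). KDM3A, a hypoxia-responsive demethylase of the same family, had -0.00 (SE 0.0221, FDR = 0.922). The share of KDM3B in the summed TPM of both was 18.8% ± 0.674 (SD, n = 3) in si-N6AMT1 and 20.9% ± 0.055 (SD, n = 3) in si-CN. JMJD1C, the third relative, whose demethylase activity is debated, had a log2 fold change of -0.10 (SE 0.0295, FDR = 0.0217). Its adjusted p was 0.103 and 0.0638 without si-N6AMT1 replicates 2 and 3, 0.0567 and 0.15 without si-CN replicates 1 and 3, and 0.117 in DESeq2.

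The H3K27 erasers KDM6A and KDM6B act against Polycomb repressive complex 2, and 1 of them was decreased. KDM6B (ENSG00000132510, chr17:7737535-7758114, plus strand), which is induced in inflammation and differentiation, stood at 86.9, 87.4 and 87.7 CPM in si-N6AMT1 and at 90, 95 and 97.9 CPM in si-CN. The groups did not overlap (log2 fold change -0.11, SE 0.0323, FDR = 0.0154), but the adjusted p was 0.0512 and 0.134 without si-CN replicates 2 and 3 and 0.1 in DESeq2. KDM6A, its X-linked relative, had -0.10 (SE 0.0436, FDR = 0.133), and reached an adjusted p of 0.0478 without si-CN replicate 2.

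Of the 3 erasers that pair a PHD finger with a JmjC domain, 1 was decreased. KDM7A (ENSG00000006459, chr7:139784546-139876783, minus strand), which demethylates H3K9 and H3K27, stood at 77.9, 73.6 and 71.2 CPM in si-N6AMT1 and at 79.4, 79.8 and 80.3 CPM in si-CN. The si-N6AMT1 replicate 1 lay close below the si-CN libraries (log2 fold change -0.11, SE 0.0344, FDR = 0.0314). Its adjusted p was 0.0945 and 0.187 without si-N6AMT1 replicates 2 and 3, 0.0506, 0.0714 and 0.099 without si-CN replicates 1, 2 and 3, and 0.161 in DESeq2. PHF8, an X-linked eraser of H3K9 and H4K20 methylation, had -0.03 (SE 0.0365, FDR = 0.696). PHF2 had -0.13 (SE 0.0469, FDR = 0.0588) and reached an adjusted p of 0.0347 without si-N6AMT1 replicate 2.

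The other erasers were not called by edgeR or by DESeq2, and of these KDM4C had an unadjusted p under 0.05 in edgeR. KDM1B, the amine oxidase of the set, had a log2 fold change of -0.06 (SE 0.0393, FDR = 0.31), and KDM2B, like KDM2A an eraser of H3K36 methylation, had -0.05. Of the erasers of H3K9me3 and H3K36me3, KDM4B had -0.01 (SE 0.0388, FDR = 0.891), KDM4A 0.06 and KDM4C -0.11, and KDM4C reached an adjusted p of 0.0188 without si-CN replicate 2. KDM8, a JmjC protein of debated activity, had the highest log2 fold change of the 52 genes, 0.29, but also the widest error (SE 0.231, FDR = 0.436), since it stood at only 1.04 to 1.71 CPM over the 6 libraries.

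Levels were compared between genes per transcript length, as TPM (length-scaled transcript abundance) estimated with the length of 1 reference transcript per gene. In si-CN, the highest of the 52 genes were KDM3A at 114 TPM ± 1.18, SETD5 at 109 TPM ± 2.26 and KDM5C at 99.2 TPM ± 3.18 (SD, n = 3). The difference between KDM3A and SETD5 was larger than the SD of either gene, and so was that between SETD5 and KDM5C. The lowest were KDM8 at 1.14 TPM ± 0.177, SETD6 at 3.78 TPM ± 0.168 and SETDB2 at 5.24 TPM ± 0.138 (SD, n = 3). The median over the 52 genes was 23.4 TPM, and 34 of the 52 were above the median of tested protein-coding genes, which was 19.1 TPM. SETD5 and KDM5C, the genes of the set with the lowest FDR, were thus also among its 3 highest, while KDM3A was at the same level in both groups (114 TPM in each). In si-N6AMT1 SETD5 stood at 90.9 TPM and KDM5C at 82.6 TPM, so that both were still among the highest genes of the set. N6AMT1 itself stood at 3.13 TPM in si-CN and 1.46 TPM in si-N6AMT1.

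**Figure D4:**
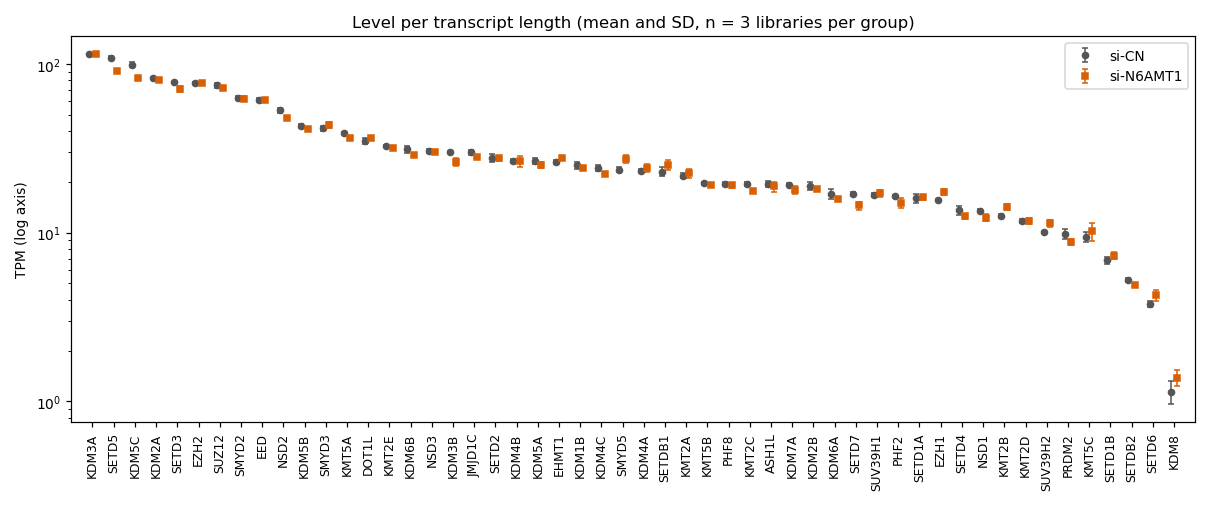
The TPM of each of the 52 genes (log y axis, mean and SD of 3 libraries per group) is plotted in the order of the si-CN level, from KDM3A at 114 TPM to KDM8 at 1.14 TPM. The si-N6AMT1 points (orange) lie close to the si-CN points (grey) in nearly every gene, since the called differences are small beside the range of levels.

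The partners of these enzymes and the readers of their marks were described by a list of 29 genes, of which 28 were tested. EZHIP, an inhibitor of Polycomb repressive complex 2, did not pass the expression filter. In the list 4 genes were decreased and 3 increased, with a median log2 fold change of -0.01, against the 11.5% and 9.78% of all genes tested. CBX3, an HP1 protein that binds methylated H3K9, stood at 104, 111 and 109 CPM in si-N6AMT1 and at 125, 119 and 122 CPM in si-CN. It was lower in all 3 si-N6AMT1 libraries (log2 fold change -0.18, SE 0.0304, FDR = 0.000165). TRMT112, the protein that N6AMT1 needs for its stability and activity, stood at 95.2, 98.2 and 99.2 CPM in si-N6AMT1 and at 88.2, 87.6 and 90.8 CPM in si-CN. Unlike N6AMT1 it rose, by 9.81% and with no overlap (log2 fold change 0.13, SE 0.0299, FDR = 0.00198). DPY30, a shared subunit of the COMPASS complexes, stood at 50.3, 53.5 and 51.4 CPM against 50.2, 43.3 and 43.8 CPM in si-CN, where replicate 1 was nearly as high as the si-N6AMT1 libraries (log2 fold change 0.18, SE 0.0479, FDR = 0.00952). The other called partners, named after their values were seen, were PHF19 (-0.13), ATF7IP (-0.10) and NCOA6 (-0.10), which were decreased, and MEN1 (0.13), which was increased. CBX3 and TRMT112 were the 2 of these 7 genes that DESeq2 also called. The number of decreased partners was 2 without si-N6AMT1 replicate 1, 2 or 3 and 1 without si-CN replicate 2, and the number of increased ones was 1 without si-CN replicate 3. Of the COMPASS core, WDR5 and RBBP5 were not called, with log2 fold changes of 0.05 and -0.02.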

How the data were processed

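Total RNA of cells labelled MDA-MB-453 was made into stranded mRNA libraries and sequenced as paired-end reads. Per the paper's methods and the labels, reads were trimmed (Trim Galore v0.6.5) and quantified by kallisto v0.46.0 against GENCODE v33 on hg19, and transcript counts were summed per gene. For 62438 genes the authors deposited these estimated counts (expected counts), in whole numbers and not normalized. Where transcripts are alike, kallisto splits reads by an estimate, and its strand option is not given in the sources used here, so counts of paralogs and overlapping genes are uncertain. Of the 52 genes, 22 share exon bases with a counted gene on the opposite strand. All 6 columns of values matched a sample by name, and 0 were left over.

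Groups were taken from the sample labels. Of the 62438 identifiers, 62149 had a symbol in GENCODE v44 on GRCh37, which also gave coordinates, transcript lengths and 3′ UTRs. The count test used edgeR v4.0.16 (R v4.3.3). Its expression filter with a minimum count of 10 was applied, and counts were scaled by TMM and tested by the quasi-likelihood test over all 17320 genes and 6 libraries with no covariate (threshold FDR 0.05, biological coefficient of variation 1.85%). SE was taken as the size of the log2 fold change over the root of F. CPM is TMM-scaled. Library totals of 19739247 to 21289740 counts give about 20 counts per library at 1 CPM.

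The 52 genes, the partner list, the markers and the UTR sequences were chosen with earlier results of these data known. The partner list was written from general knowledge, and 1 marker, PECAM1, was not matched. Some marker values are not reported here. Genes named are N6AMT1, every called gene of the set, with values per library for the 12 of lowest FDR and the lowest in each role group, in each role group the uncalled gene of highest TPM, the 3 highest and lowest genes by TPM, genes whose call differs between edgeR and DESeq2, and the 3 called partners of lowest FDR with TRMT112. Some others are named by value only. No test of the list was made.

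Alternatives were RLE size factors, DESeq2 v1.42.0, limma-voom (limma v3.58.1), no expression filter, library sizes without mitochondrial genes, a block for the replicate number, alone or with a GC offset, and each library left out. Adjusted p-values of NA in DESeq2 stayed NA. In 10 simulated data sets of this comparison, with 17046 genes in each, edgeR recovered 57.3% of genes changed 1.25-fold and 72.9% of those changed 1.5-fold, and 7.69% of its calls were false. Few genes were changed, 980 and 975 over all 10 sets, so the false share need not hold for the real data. Every called gene of the set changed by less than 1.25-fold, so recovery at that size was not tested. Figures were drawn in Python v3.11.15 with matplotlib v3.10.9.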

Additional observations from a re-analysis of the deposited data

How the results depend on the processing

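None of the 16 called genes changed direction under any alternative. RLE size factors, no expression filter and mitochondrial genes left out of library sizes kept all 16 calls. Limma-voom lost SETDB1, and the GC offset with the block lost SETDB1, JMJD1C and KDM7A (adjusted p = 0.0517, 0.189 and 0.258) and gained SUV39H2 and PHF2 (0.0376 and 0.0336). DESeq2 lost 7 calls, leaving 7 genes lower and 2 higher of the set, 2 writers higher, 2 erasers lower, and 1 partner lower and 1 higher. Over all genes, DESeq2 called 1139 lower and 796 higher, against 1993 and 1694 in edgeR. DESeq2 gave an adjusted p of NA for N6AMT1 and KDM8. With each library left out in turn, 8 to 11 genes of the set were lower and 2 to 4 higher, 5 to 7 writers lower and 2 to 4 higher, 2 to 5 erasers lower and 0 higher, and 1 to 4 partners lower and 1 to 3 higher. N6AMT1 stayed between -1.18 and -1.04. The replicate block kept 12 lower and 4 higher genes of the set and gave 1804 lower and 1522 higher over all genes. Same-numbered libraries did not deviate together (correlations of deviations -0.118, -0.0823 and 0.00333), so the numbers were not taken as a pairing. For these losses the cause was not tested. KDM8 and N6AMT1 had few counts, 22 to 35 and 60 to 141 per library, and the part of depth in their results was not tested.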
